A study of Mus musculus with 6 samples.

Results

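The La and La-related protein (LARP) genes encode RNA-binding proteins that share the La motif, and 7 of them were read from a table of ribosome footprints over 22416 mouse genes: Ssb, which encodes La itself, and Larp1, Larp1b, Larp4, Larp4b, Larp6 and Larp7. All 7 averaged 1 FPKM or more over the libraries (FPKM being fragments scaled to coding length and library size) and so entered the tests. The members were selected on their names, with earlier results of these data known. An earlier fit with precision weights had called Ssb between Treat_MII and WT_MII, so the family is taken here as chosen by that value of Ssb, although the reason is not stated and the weighted fit made here called 0 genes between these groups in either direction. As both comparisons below share the WT_MII libraries, the values of Ssb in either are given as a description with no test.

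The study asked how RNA G-quadruplexes (rG4s), folded stretches of G-rich RNA, affect translation while mouse oocytes mature. Ribo-lite, a low-input form of ribosome profiling that sequences the mRNA fragments covered by ribosomes, was run on 6 libraries of 500 oocytes each, 2 libraries per group. WT_FGO are fully grown oocytes with an intact germinal vesicle, WT_MII are control oocytes matured in culture to metaphase II, and Treat_MII are treated oocytes labelled with the same stage. All came from wild-type C57BL/6 females, 4 weeks old, primed with 5 IU PMSG (a gonadotropin that stimulates follicle growth) for 44 h. The labels call the last group only treated. The study's methods name the rG4 ligand BYBX, with DMSO given to control oocytes at both stages. The study reports that fewer oocytes released the first polar body with BYBX, and that those that did had abnormal spindles. How far the Treat_MII oocytes had matured was not tested here. Each library pools oocytes of several mice, and the sources name no animals for the replicates, so p-values measure only the spread between these samples.

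The La motif and the RNA recognition motif beside it form the RNA-binding module that gives the family its name. La holds the uridine-rich 3′ ends of new RNA polymerase III transcripts such as tRNA precursors, and Larp7 holds the 7SK RNA that keeps the kinase P-TEFb inactive. Larp1 and its paralog Larp1b bind capped mRNAs that start with a pyrimidine tract (TOP mRNAs). Larp4 binds poly(A), Larp4b binds A- and U-rich mRNA, and both bind poly(A)-binding protein. Larp6 binds a stem-loop in collagen mRNAs. Oocytes mature without transcription, so the proteins made then depend on stored mRNAs and on the length of their poly(A) tails.

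Because the treatment acts on rG4s, the longest coding transcript of each member was searched on its own strand for G-quadruplex motifs, here 4 G runs, each no shorter than 3 bases, that were separated by loops of between 1 and 7 bases. A match was found in the 5′-UTR of Larp1b and of Larp4, and both are printed 5′ to 3′ with the G runs in capitals. The Larp1b match lies at chr3:40949981-40950005 and the Larp4 match at chr15:99972794-99972813, both on the plus strand of GRCm38 (the assembly also called mm10), and each lies within a single exon.

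Larp1b 5′-UTR: GGGcGGGGaggacGGGcacgccGGG

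Larp4 5′-UTR: GGGaggaGGGactGGGcGGG

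The Larp1b match spans 25 bases from position 154 of a 5′-UTR of 316 bases, and the Larp4 match spans 20 bases from position 15 of 186. Among the tested genes with an annotated 5′-UTR, 1032 of 14274 (7.23%) held such a match there, and 2929 of 14825 (19.8%) held one anywhere in the transcript. Ssb, Larp1, Larp4b, Larp6 and Larp7 held none in the 5′-UTR, coding sequence or 3′-UTR of the transcript searched. A match is a feature of the sequence and not a measured rG4.

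Depth set what could be seen. The library constants recovered from the FPKM corresponded to 94309 and 107251 reads in WT_FGO, 164972 and 230907 in WT_MII, and 331304 and 275604 in Treat_MII, so that a single read in 1 kb of coding sequence was worth 3.02 to 10.6 FPKM. The share of genes listed at 0 ran from 48.2% to 57.2% over the libraries, and Spearman's rho between replicates over the 15127 tested genes was 0.500 in WT_FGO, 0.608 in WT_MII and 0.732 in Treat_MII. Of the 15 oocyte markers at most 1 was at 0 in any library, and Figla, which had 109 and 64.1 FPKM in WT_FGO, was at 0 in both WT_MII libraries. The 18 granulosa and cumulus markers summed to 141 to 277 FPKM in 5 libraries and to 2082 FPKM in the second WT_FGO library, which stood apart in this. Values are relative to the total of each library, and in these bulk samples less RNA per cell and fewer cells carrying it cannot be told apart. Footprints also depend on both the amount of an mRNA and the ribosomes on it, which cannot be separated without RNA levels. By RNA-seq, not analysed here, the study reports higher transcript levels in BYBX-treated than in control metaphase II oocytes. From Ribo-lite it reports fewer footprints with BYBX, with more transcripts lower than higher by a fold rule, and lower ratios of footprints to mRNA. That fold rule differs from the test used here.

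Ssb carried most of the footprints of the family in WT_FGO and Treat_MII, and far fewer in WT_MII. The gene lies at chr2:69861562-69871846, and its protein, La, protects nascent polymerase III transcripts and also binds some mRNAs. Its FPKM reached 366 and 382 in WT_FGO, 77.9 and 48.7 in WT_MII, and 281 and 277 in Treat_MII. Both WT_MII libraries lay below all 4 others, and both Treat_MII libraries lay below both WT_FGO libraries. The reads behind these values were 43 and 51, 16 and 14, and 116 and 95. The group means were 374 ± 11.1, 63.3 ± 20.7 and 279 ± 3.09 FPKM (SD, n = 2 each), so WT_MII stood at 16.9% and Treat_MII at 74.6% of the WT_FGO mean.

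Between single libraries Ssb was 4.70- to 7.84-fold lower in WT_MII than in WT_FGO and 3.55- to 5.77-fold higher in Treat_MII than in WT_MII. Pooled over the libraries of a group and divided by depth, the reads were 6.15-fold lower in WT_MII than in WT_FGO and 4.59-fold higher in Treat_MII than in WT_MII. As the values of Ssb chose the family, no interval is given for them. On the log2(FPKM + 1) scale the change of Ssb was -2.58 (SE 0.35) at maturation and 2.16 (SE 0.35) with treatment, and the levels in WT_FGO exceeded those in Treat_MII by 1.30- to 1.38-fold. All coding 28-base words of Ssb were its own (0% shared with other genes), so its reads could be placed on it alone.

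The order seen for Ssb was not rare in the table. Of the 15127 tested genes, 1133 (7.49%) had both WT_FGO and both Treat_MII libraries above both WT_MII libraries, and 796 (5.26%) also had both WT_FGO libraries above both Treat_MII libraries. At maturation limma called 468 of the 15127 tested genes lower and 555 higher. Of the 15 oocyte markers, 10 were called lower and 1 (Oosp1) higher there, with a median change of -2.53. With treatment 0 were called by limma, 14 of 15 values were positive and the median was 1.10, and both comparisons share the WT_MII libraries. Summed over the list, FPKM came to 64750 and 45120 in WT_FGO, to 21850 and 26010 in WT_MII, and to 33210 and 34430 in Treat_MII. As in the whole table, the maturation calls of the markers were lost when either Treat_MII library was left out. Fewer markers were called lower without either WT_MII library, with maturation medians of -2.77 without the first and -2.49 without the second. The part of these marker levels in the values of Ssb was not tested.

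**Figure D1:**
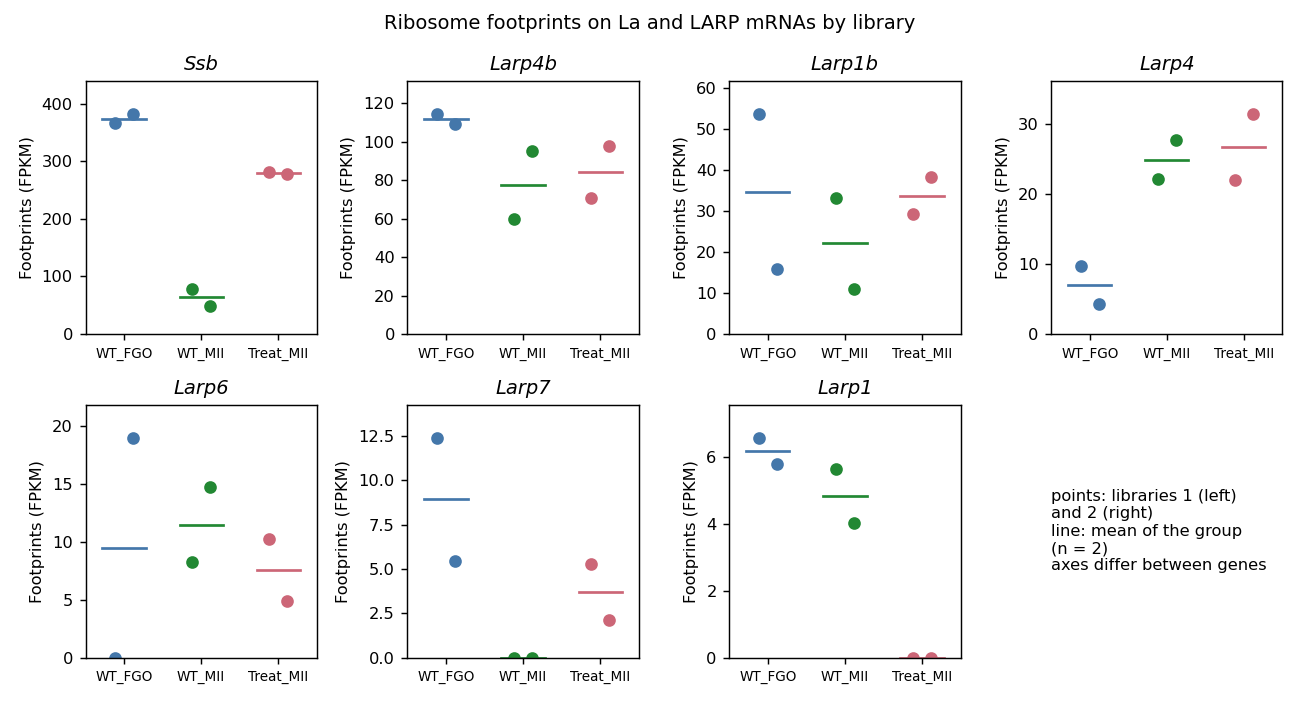
Footprints in FPKM (y axis, starting at 0, scaled per gene) of the 7 genes in the 2 libraries of each group, with a line at the group mean. The WT_MII points of Ssb, at 77.9 and 48.7 FPKM, lie below its other 4 points, whereas the points of Larp4b and Larp1b spread over each other between WT_MII and Treat_MII.

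The genes whose levels followed Ssb most closely came from several functions. By Pearson's r of log2(FPKM + 1) over the 6 libraries, among the 2067 genes that averaged 50 FPKM or more, they were Aspm (r = 0.995), Npm2 (0.984), Atp5j (0.983), Sem1 (0.983) and Tpgs2 (0.979). These r are a description of 6 libraries that fall into 3 groups and differ in depth. Aspm, a protein of the meiotic and mitotic spindle poles, had 90.6 and 92.6 FPKM in WT_FGO, 24.6 and 18.5 in WT_MII, and 67.3 and 61.6 in Treat_MII. Npm2, a histone chaperone stored in the egg and one of the oocyte markers, had 2390 and 2492, 293 and 188, and 1035 and 1309 FPKM. Both had WT_MII as their lowest group and Treat_MII between the others, an order that the choice by r favours. Sem1, a small proteasome subunit, had 1565 and 1687, 491 and 412, and 1164 and 1019 FPKM. Atp5j, a subunit of mitochondrial ATP synthase, and Tpgs2, a subunit of the tubulin polyglutamylase complex, were listed at 0 in both WT_MII libraries.

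**Figure D2:**
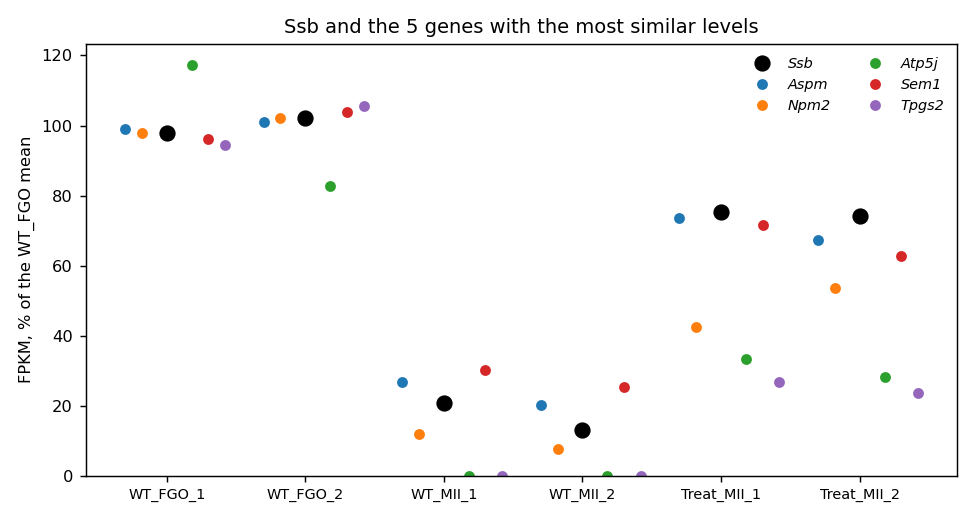
FPKM as a percentage of the WT_FGO mean (y axis) of Ssb (large black points) and of the 5 genes with the highest r with it, in each library (x axis). All 6 genes are lowest in WT_MII, which choosing the 5 by r favours. In Treat_MII Ssb stands at 74.6% of its WT_FGO mean on average, above the other 5.

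Across the whole table, limma with a mean-variance trend called 1023 genes at maturation (WT_MII minus WT_FGO; 555 higher and 468 lower at an adjusted p under 0.05), which is 6.76% of the 15127 tested. Of the 7 members 1 was called, Ssb, and as its values chose the family nothing is read from that count. With treatment (Treat_MII minus WT_MII) limma called 0 genes (0%), the members included, and 882 genes (5.83%) had an unadjusted p under 0.05. The maturation calls depended on the Treat_MII libraries, which are not part of this contrast but take part in estimating the spread. With only the compared groups in the fit, 0 genes were called higher and 0 lower at maturation. All maturation calls of the table were likewise lost when either Treat_MII library was left out, so their loss there is not particular to any list. Of the 6 LARP genes none was called at maturation (adjusted p from 0.127 to 0.902) or with treatment (0.836 to 1). The median of all genes was -0.44 at maturation and 0 with treatment, and that of the members -0.56 and 0.13.

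**Figure D3:**
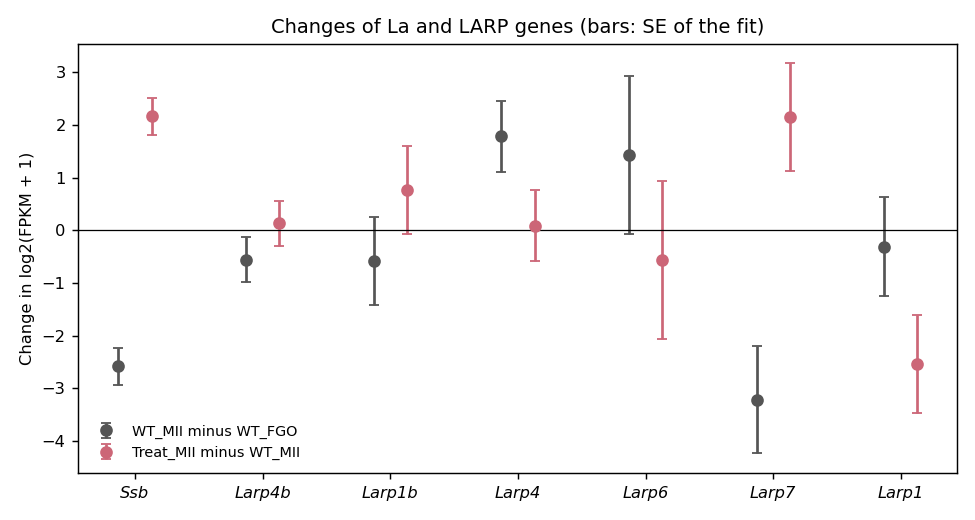
Changes in log2(FPKM + 1) of the 7 genes (y axis) with the standard error of the limma fit as bars, for WT_MII minus WT_FGO (grey) and Treat_MII minus WT_MII (red), which share the WT_MII libraries. Ssb has the smallest error of the family, 0.35, and Larp6, with few reads, the widest, 1.50.

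Larp4b had the highest level of footprints per length among the LARP genes, and its levels differed little between the groups. Its product binds A- and U-rich mRNA and poly(A)-binding protein, and the gene lies at chr13:9093881-9174451. It had 114.5 and 109 FPKM in WT_FGO, 59.99 and 95.5 in WT_MII, and 70.6 and 97.9 in Treat_MII, from 22 to 60 reads per library. Both WT_FGO libraries lay above the 4 metaphase II libraries, and WT_MII and Treat_MII overlapped. The means were 112 ± 3.84, 77.7 ± 25.1 and 84.3 ± 19.3 FPKM (SD, n = 2), and the changes of -0.56 (SE 0.43, limma adjusted p = 0.49) at maturation and 0.13 (SE 0.43, adjusted p = 1) with treatment did not pass. The pooled reads gave a ratio of 0.723 (95% exact counting interval 0.496 to 1.06) of WT_MII to WT_FGO and of 1.03 (0.758 to 1.41) of Treat_MII to WT_MII. Such intervals, here and below, cover counting error only and leave out the spread between libraries. Copies made by PCR are not independent molecules, so the intervals may be too narrow. Without the first WT_MII library or the second Treat_MII library the treatment value turned to -0.20 and -0.10.

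Larp4, its paralog, which stabilizes mRNAs by protecting their poly(A) tails, had higher values in metaphase II oocytes of both groups than in WT_FGO, a difference that did not pass the test. The gene (chr15:99970065-100016358) had 9.69 and 4.26 FPKM in WT_FGO, 22.1 and 27.7 in WT_MII, and 22.1 and 31.5 in Treat_MII. Both WT_FGO libraries lay below all 4 others, and WT_MII and Treat_MII overlapped. Only 2 and 1 reads lay behind the WT_FGO values, against 8 and 14 in WT_MII and 16 and 19 in Treat_MII. The change of 1.78 (SE 0.68) at maturation had an unadjusted limma p of 0.0383 and an adjusted p of 0.187, and the pooled reads gave 3.73-fold with a counting interval of 1.12 to 19.5. With treatment the change was 0.09 (SE 0.68, adjusted p = 1), and the ratio of pooled reads was 1.04 (0.592 to 1.86). The predicted genes Gm14373 and Gm8177 hold 71.5% of the 28-base words in its coding sequence, so its level is uncertain, as it is not given how reads with several origins were counted.

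Larp1b, a paralog of Larp1 (chr3:40949828-41040234), varied more within groups than between them. It had 53.8 and 15.8 FPKM in WT_FGO, 33.3 and 10.98 in WT_MII, and 29.3 and 38.3 in Treat_MII, from 4 to 25 reads per library. All 3 groups overlapped. The change was -0.58 (SE 0.84, adjusted p = 0.713 in limma) at maturation and 0.77 (SE 0.84, adjusted p = 0.976) with treatment, and the maturation value turned to 0.27 without the first WT_FGO library and to 0.18 without the second WT_MII library. The ratios of pooled reads were 0.605 (0.295 to 1.26) and 1.65 (0.951 to 2.97). Larp1b and Larp4, whose 5′-UTRs hold the matches printed above, had treatment values of 0.77 and 0.09, both smaller than their standard errors. Any link between the matches and these values was not tested. The Larp1b transcript searched has 1626 coding bases, whereas a length of 2367 was used for its reads.

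Larp1, the TOP mRNA repressor downstream of the kinase mTORC1, was close to the limit of detection. The gene (chr11:58009064-58062034) had 6.59 and 5.79 FPKM in WT_FGO, 5.65 and 4.03 in WT_MII, and was listed at 0 in both Treat_MII libraries. These values stand for 2 and 2, 3 and 3, and 0 and 0 reads, all at or under the floor of 3 reads per library, so no fold is given. The fitted changes were -0.31 (SE 0.93, adjusted p = 0.902) and -2.53 (SE 0.93, unadjusted p = 0.0343 and adjusted p = 0.836 in limma). The predicted gene Gm16425 shares 24.7% of its coding 28-base words.

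Larp7, the 7SK-binding member (chr3:127536714-127553349, minus strand), was just as scarce. It had 12.4 and 5.45 FPKM in WT_FGO, 0 and 0 in WT_MII, and 5.29 and 2.12 in Treat_MII, from 2 and 1, 0 and 0, and 3 and 1 reads. All lay at or under the floor, and no fold is given. Its fitted changes were -3.22 (SE 1.02, unadjusted p = 0.0189 and adjusted p = 0.127 in limma) and 2.15 (SE 1.02, adjusted p = 0.931), while Gm12666 and Gm31104 hold 30.4% of its coding words. Larp6, the collagen mRNA-binding member (chr9:60712989-60738801), had 0 and 18.9 FPKM in WT_FGO, 8.21 and 14.7 in WT_MII, and 10.2 and 4.92 in Treat_MII, from 0 to 5 reads per library. Its groups overlapped in both comparisons, and the fitted changes of 1.43 (SE 1.50, adjusted p = 0.581) and -0.56 (SE 1.50, adjusted p = 1) were smaller than their errors. Without the first WT_FGO library, where it was listed at 0, the maturation value of Larp6 turned to -0.73.

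The balance within the family differed between the groups mainly through Ssb. The means of the 7 genes summed to 552 FPKM in WT_FGO, 204 in WT_MII and 435 in Treat_MII, and Ssb made up 67.7%, 31.0% and 64.1% of these sums. The 6 LARP genes alone summed to 178, 141 and 156 FPKM. The ratio of Ssb to Larp4b, both with reads of their own, was 3.35 in WT_FGO, 0.814 in WT_MII and 3.31 in Treat_MII. By mean level over all libraries the order was Ssb (239 FPKM), Larp4b (91.2), Larp1b (30.2), Larp4 (19.6), Larp6 (9.50), Larp7 (4.21) and Larp1 (3.68). Neighbours in this order overlapped in their ranges over the 6 libraries, except Larp4b and Larp1b.

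The RNAs and proteins that the members act on or with were followed as 5 lists, read against the median of all genes. With treatment limma called 0 of their genes with all libraries in the fit. When a library was left out, 1 gene of the La list was called higher without the first WT_MII library and 1 lower without the second, and 1 gene of the poly(A) and cap list was called higher without the second WT_MII library. For La, 32 of 33 listed genes of RNA polymerase III, the Ro particle and the ends of tRNA and U6 RNA were tested. Their median change was -1.30 at maturation and 0.61 with treatment, against -0.44 and 0 for all genes. Set against 6.76% of all tested genes called at maturation, 1 gene of this list was called. This was Lsm8, a subunit of the ring that takes over the U6 3′ end from La, which had 142 and 75.2 FPKM in WT_FGO, stood at 0 in the WT_MII pair, and had 8.11 and 48.8 FPKM in Treat_MII, from at most 5 reads. It passed at maturation with an adjusted p of 0.0175 in limma. Polr3k, a small polymerase III subunit and among the list's genes of highest mean, had 360 and 374, 56.1 and 254, and 345 and 202 FPKM (adjusted p = 0.256 at maturation). The list's median was 0.03 with treatment without the first WT_MII library and -0.26 at maturation without the same library. Its lower call was lost without the second WT_MII library and, as in the whole table, without either Treat_MII library. The count of lower calls was 3 with a pseudocount of 0.1 and 6 with precision weights.

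Among 24 tested partners of Larp1, Larp1b, Larp4 and Larp4b at the poly(A) tail and the cap, 2 rose and 3 fell at maturation, with a median of -0.44. The median of all genes was -0.44 as well, and of all 15127 tested genes 555 were called higher and 468 lower (6.76% in all). Pabpn1l, the poly(A)-binding protein of the early embryo, rose from 24.6 and 32.4 FPKM in WT_FGO to 309 and 371 in WT_MII (change 3.54, SE 0.32, limma adjusted p = 0.00401), with 713 and 697 FPKM in Treat_MII. Its WT_FGO values stand for only 2 and 3 reads. Paip1, which enhances the action of poly(A)-binding protein in initiation, rose from 327 and 487 to 1403 and 2054 FPKM (change 2.09, SE 0.30, adjusted p = 0.0156), with 1726 and 1609 in Treat_MII. In contrast, Paip2, which competes for poly(A)-binding protein, fell by 3.05 (SE 0.26, adjusted p = 0.0033), from 1938 and 2030 to 212 and 268 FPKM. Pabpc1l, the oocyte form of poly(A)-binding protein, fell from 338 and 282 FPKM to 0 and 11.9 (limma adjusted p = 0.0334), the latter from 0 and 5 reads. Eif4e1b, the oocyte cap-binding protein, fell from 1256 and 612 FPKM to 150 and 112 (adjusted p = 0.0188). In Treat_MII these 3 had 300.2 and 390, 51.4 and 29.9, and 237 and 211 FPKM. As in the whole table, the maturation calls of this list were lost when either Treat_MII library was left out.

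Of the TOP mRNAs other than those of ribosomal proteins, the targets of Larp1, 17 of 20 were tested. At maturation 2 of these were called lower, with a median of -1.92, against 468 lower calls among all 15127 tested genes and their median of -0.44. Eif3f, an initiation factor subunit, had 137 and 60.3 FPKM in WT_FGO and 11.2 and 7.998 in WT_MII (limma adjusted p = 0.0452). Its WT_MII values stand for only 2 and 2 reads. Pfdn5, a subunit of the chaperone prefoldin, had 390 and 646 FPKM and then 52.5 and 84.4 (adjusted p = 0.016), the latter from 4 and 9 reads. With treatment the median was 0.72, and Eif3f had 16.7 and 26.8 FPKM and Pfdn5 157 and 141. Both calls were lost without the first WT_MII library and, as in the whole table, without either Treat_MII library. Fewer TOP genes were called lower without the second WT_FGO or the second WT_MII library. The count was 5 when genes under a mean of 5 FPKM were left out. The treatment median was 0.03 without the first WT_MII library. The 15 tested granulosa and cumulus markers had a median of -1.73 at maturation, with Gja1 called lower (92.5 and 740 FPKM in WT_FGO, 0 and 3.78 in WT_MII). Without the second WT_FGO library their median was 0 with no call and that of the TOP list -1.84, and without the first 3 markers were called lower. Their part in the TOP values was not tested.

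The 13 genes of the 7SK particle and P-TEFb, partners of Larp7, gave no call, with medians of 0.35 at maturation and -0.17 with treatment. Ccnk, a cyclin of transcriptional kinases, had 960 and 465 FPKM in WT_FGO, 246 and 218 in WT_MII, and 187 and 216 in Treat_MII (adjusted p = 0.084 at maturation), and the maturation median of the list turned to -0.43 and -0.52 without the first and the second WT_FGO library, with 1 and 2 genes then called lower. Ccnt2, a cyclin of P-TEFb, had 225 and 98.9, 126 and 196, and 160 and 182 FPKM, with overlap of all groups. The collagen mRNAs bound by Larp6 (Col1a1, Col1a2 and Col3a1) had at most 21.9 FPKM and 9 reads in any library, and none was called.

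**Figure D4:**
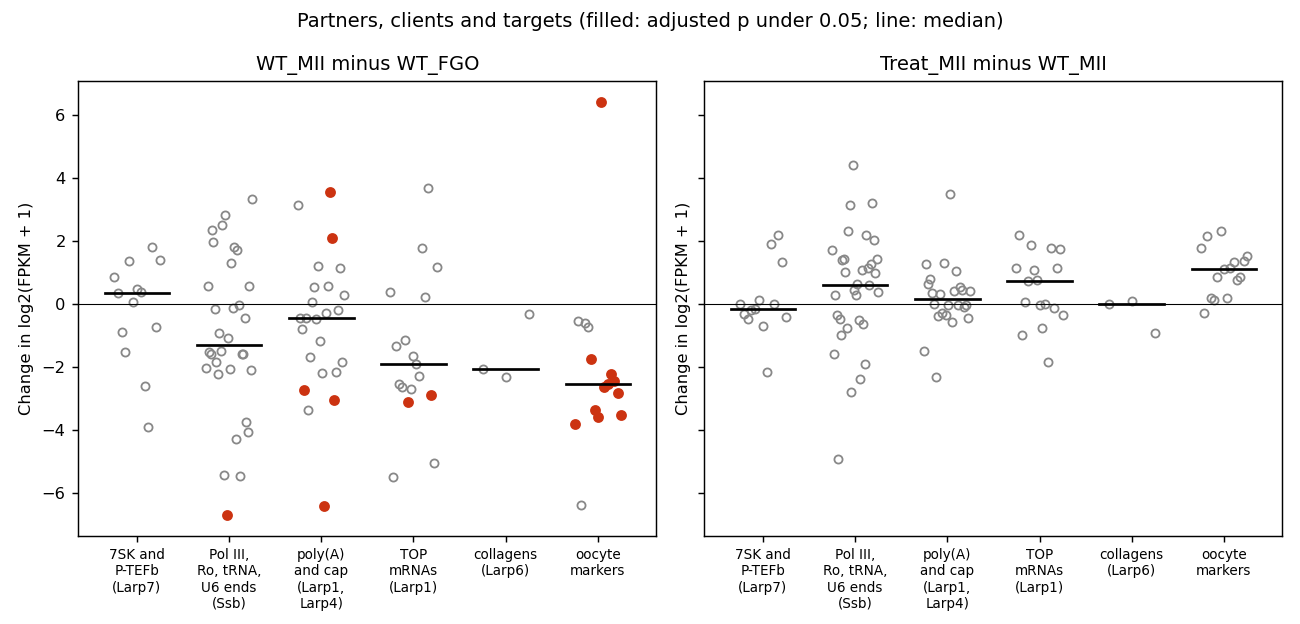
Changes in log2(FPKM + 1) (y axis) of each tested gene of the 5 lists and of the oocyte markers, at maturation (left) and with treatment (right), with filled points for an adjusted p under 0.05 and a line at each list's median. Filled points occur at maturation, among them the 2 rises and 3 falls of the poly(A) and cap list, and there are none with treatment.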

How the data were processed

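Ribo-lite reads of 6 libraries had been placed on mm10 (cutadapt 1.14, Bowtie2 2.2.2 and STAR 2.5.3a in the submitters' processing notes), and the authors deposited FPKM per gene and library. The counting program and annotation are not given in the sources used here, and no spike-in scaling is stated. RNA-seq and rG4 mapping data were not analysed here. Of 22442 rows, 26 with a repeated name were left out. FPKM were multiplied by the coding length in GENCODE M21, which gave whole reads within 0.02 in all libraries for 97.9% of genes with a coding length and a value above 0; for Larp1b the smallest length that gave whole reads, 2367 bases, was used.

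log2(FPKM + 1) of genes averaging 1 FPKM or more was fitted with limma 3.58.1 (lmFit and eBayes with a trend, R 4.3.3), all 6 libraries and 3 groups in a single fit, with Benjamini-Hochberg adjustment over 15127 genes. Ratios of pooled reads, other than those of Ssb, have exact binomial intervals (scipy 1.17.1). The fit was tested on simulated data: set changes were recovered in size, but with few reads and a wide spread none was called, and with more reads and a narrow spread, a setting added after that, most were called along with more unchanged genes than the threshold allows. The changes missed in the former were large, so the lack of a call does not show that a gene was unchanged, and the adjusted p may be too small.

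The members and lists were chosen with earlier results of these data known. Named are all members, list genes that passed a test and otherwise up to 3 with the highest mean of each list, and the 5 genes most like Ssb. Alternatives were another pseudocount, other filters, scalings and weights, a replicate block, no trend, only the compared groups, and leaving out each library.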

Additional observations from a re-analysis of the deposited data

How the results depend on the processing

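Over 204 values of the 7 members under alternatives, 194 kept their direction, and 9 of the 14 changes kept it in every alternative run. Ssb stayed between -2.92 and -2.12 at maturation and between 1.83 and 2.49 with treatment. The number of members called lower at maturation, 1, was 0 with no mean-variance trend and 0 with only the compared groups, and ranged from 0 to 1 when a library was left out (0 without either WT_FGO or either Treat_MII library). The number called higher with treatment, 0, ranged from 0 to 1 (1 without either WT_MII library). Both counts are of Ssb, whose values chose the family, and nothing is read from them.

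Centring on the median log2 ratio moved the median of all genes from -0.44 to 0.02 at maturation and from 0 to -0.11 with treatment. It turned the maturation value of Larp1 to 0.15 (0.38 with quantile normalization) and the treatment value of Larp4 to -0.028. When a library was left out, Larp1b at maturation ranged from -1.43 to 0.27 (0.18 without the second WT_MII library), Larp6 from -0.73 to 3.59, and with treatment Larp4 from -0.16 to 0.33 (-0.07 without the first WT_MII library) and Larp4b from -0.20 to 0.46 (-0.10 without the second Treat_MII library). The cause of these turns was not tested.

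Counts over all genes at maturation, 555 higher and 468 lower, were 188 and 140 with no trend, 0 and 0 with only the compared groups, and 758 and 305 when centred, which raises the share of higher calls. Leaving out either Treat_MII library also left no call in the table at maturation. Leaving out a WT_FGO library gave 777 and 1066 or 902 and 848, and a WT_MII library 583 and 243 or 605 and 263. With treatment, leaving out a WT_MII library gave 17 higher and 347 lower or 31 and 387, and a Treat_MII library 363 or 398 higher and 0 lower. Same-numbered libraries did not deviate together (correlations 0.0342, 0.0176 and 0.0189 over 2706 genes), so the numbers were not taken as pairs. A replicate block gave 453 higher and 335 lower at maturation and left 1 member called there. Larp1b could not be fitted with precision weights, and Larp1 and Larp7 not with a mean of at least 5 FPKM. At 0 to 5 reads per library, changes of Larp1, Larp6 and Larp7 could not be resolved. List counts under the alternatives were added after seeing the data.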
